A study of Homo sapiens with 6 samples.

Results

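The genes of the latent TGF-beta binding proteins (LTBP1, LTBP2, LTBP3 and LTBP4), the fibrillins (FBN1 and FBN2) and the fibulins (FBLN1, EFEMP1 and EFEMP2) were compared between L1low and L1high pancreatic cancer cells. The genes were chosen by name but with earlier results of these data known, so the shares over all genes printed beside them are no test. All 9 were present among the 19469 genes of the count table. L3.6pl is an established human pancreatic adenosquamous carcinoma line derived from a metastatic lymph node. Untreated cells were sorted by flow cytometry on the surface level of L1CAM, a cell adhesion molecule, into an L1high (labelled L1CAM positive) and an L1low (labelled L1CAM negative) population, and mRNA of each was sequenced in 3 libraries. Both populations came from the same line. Nothing in the labels says that the 3 libraries of a population came from separate cultures or sorts, so p-values measure only the spread between these libraries, which may be technical. The sample characteristics write the line as L6.6pl, whereas the titles and the study write L3.6pl.

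Latent TGF-beta binding proteins are large secreted glycoproteins built from EGF-like repeats and cysteine-rich domains. LTBP1 and LTBP3 bind the propeptide of TGF-beta and tether the inactive ligand to the extracellular matrix, LTBP4 does so less efficiently, and LTBP2 does not bind latent TGF-beta. Fibrillins, which share the same kinds of domain, assemble into microfibrils that serve as a scaffold for elastin and as a docking site for LTBPs. Fibulins are shorter secreted proteins that bind elastin, fibrillins and LTBPs. In tissue, most of these genes are known from fibroblasts and smooth muscle cells.

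Total counts ran from 16334610 to 21064685 per library. The table held only genes that exceeded 1 CPM (a count scaled to a common library size) in 2 or more libraries, so lower genes could not be assessed. The comparison used L1high replicates 1 and 2 and L1low replicates 1, 2 and 3, the libraries of the study's own comparison, which leaves out L1high replicate 3 with no reason given. All 6 libraries were compared beside it. L1CAM itself stood at 84.0, 69.8 and 89.5 CPM in L1high replicates 1, 2 and 3 and at 17.7, 23.7 and 20.0 CPM in L1low replicates 1, 2 and 3. Over the 5 libraries the log2 fold change of this marker was -1.90 (edgeR, quasi-likelihood test, Benjamini-Hochberg adjusted p = 3.7e-06). Throughout, a positive log2 fold change means a higher level in L1low cells, adjusted p-values come from that test over all genes, and genes at an adjusted p under 0.05 are called. In bulk RNA, more cells expressing a gene and more RNA per cell cannot be told apart.

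Of the 9 genes, 7 rose in L1low cells, and all 9 had a positive log2 fold change. EFEMP1 rose 2.05-fold, LTBP4, LTBP2, EFEMP2, LTBP1, FBN2 and FBLN1 rose between 1.46-fold and 1.73-fold, and FBN1 and LTBP3 did not pass the test. Among all genes tested over the 5 libraries, 7.57% were called, 4.41% as higher and 3.15% as lower in L1low. The median log2 fold change of the 9 genes was 0.60, against 0.00 for all genes. Over all 6 libraries 7 of the 9 were again called, with FBN1 and LTBP3 again not called, while 4.58% of genes were called higher. The median was then 0.56, against -0.01 for all genes. The 3 L1low libraries all lay above the 3 L1high libraries for 8 of the 9 genes, as they did for 15.2% of the genes in the table. L1high replicate 2 was the lowest of the L1high libraries for 6 of the 9 genes. Over the other 5 libraries, without L1high replicate 2, 7 of the 9 genes were called. The median of the 9 was then 0.47, the lowest of the 15 alternative settings. Throughout, fits without an L1low library leave it out of the 5 libraries, and fits without L1high replicate 1 or 2 leave it out of all 6. Without L1low replicate 2, over L1high replicates 1 and 2 and L1low replicates 1 and 3, only LTBP4, FBN2, FBLN1 and EFEMP1 were called, 4 of 9. The number of all genes called was then 551 (340 higher), against 1473 (859 higher) with L1low replicate 2.

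**Figure D1:**
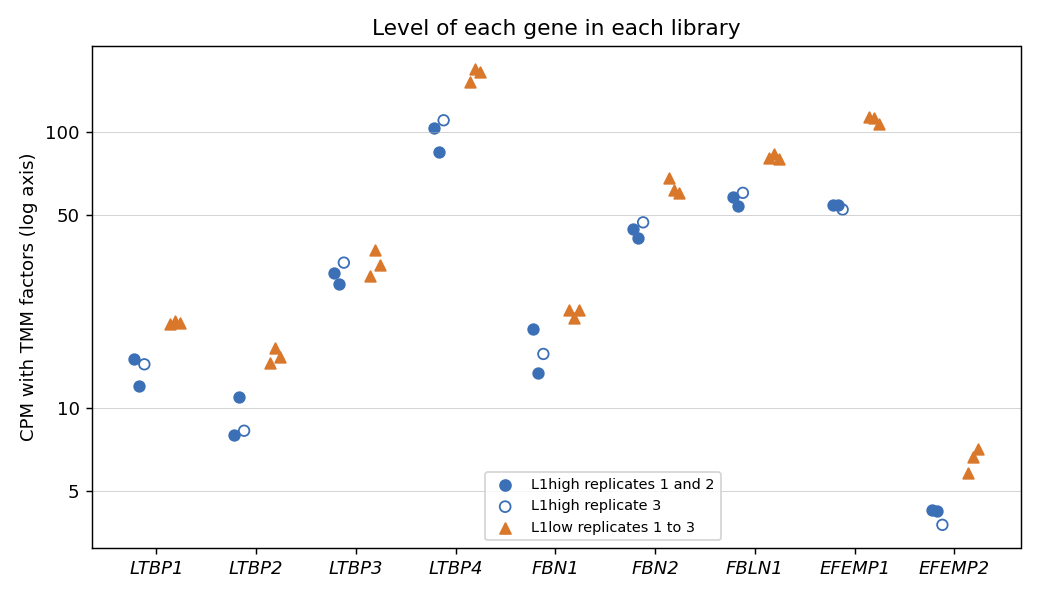
CPM of each gene in each library on a log axis, with L1high replicates 1 and 2 as filled circles, L1high replicate 3 as open circles and L1low replicates as triangles. The triangles lie above all circles for 8 of the 9 genes, whereas for LTBP3 the L1low values of 30.1 to 37.3 CPM overlap the L1high values of 28.1 to 33.6 CPM.

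LTBP4 (ENSG00000090006, chromosome 19 from 40592883 to 40629818 on the plus strand, GRCh38), whose product also takes part in elastic fibre assembly, had the highest level of the LTBPs per transcript length in both groups. It stood at 103, 84.3 and 110 CPM in L1high replicates 1, 2 and 3 and at 151, 169 and 164 CPM in L1low replicates 1, 2 and 3. The groups did not overlap, and L1high replicate 2 was the lowest library. The log2 fold change was 0.79 over the 5 libraries (standard error 0.10, 95% interval 0.58 to 1.0, adjusted p = 2.9e-04) and 0.71 over all 6 (adjusted p = 8.2e-04). RefSeq lists 2 starts for LTBP4. The 300 bases around each, from 250 before to 50 after the start, are shown because this gene had the highest fold change of the LTBPs over the 5 libraries and its windows differ in base composition (45.7% and 81.0% GC). The window of LTBP2, whose log2 fold change was the next highest over the 5 libraries (0.71) and above that of LTBP4 over all 6 (0.76), is shown beside them (67.0% GC). All 3 are RefSeq sequences on GRCh38.p14 in the direction of transcription. Capitals mark CAGAC or its reverse complement GTCTG, which hold the short element bound by SMAD proteins, and GGAATG or its reverse complement CATTCC, the element bound by TEAD proteins.
LTBP4, upstream start, chr19:40592916-40593215, plus strand: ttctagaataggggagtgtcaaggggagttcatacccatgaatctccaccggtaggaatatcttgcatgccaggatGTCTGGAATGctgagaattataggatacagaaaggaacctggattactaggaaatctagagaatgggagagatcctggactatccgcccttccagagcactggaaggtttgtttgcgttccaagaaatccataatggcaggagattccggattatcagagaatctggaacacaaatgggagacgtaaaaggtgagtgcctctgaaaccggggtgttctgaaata
LTBP4, downstream start, chr19:40601119-40601418, plus strand: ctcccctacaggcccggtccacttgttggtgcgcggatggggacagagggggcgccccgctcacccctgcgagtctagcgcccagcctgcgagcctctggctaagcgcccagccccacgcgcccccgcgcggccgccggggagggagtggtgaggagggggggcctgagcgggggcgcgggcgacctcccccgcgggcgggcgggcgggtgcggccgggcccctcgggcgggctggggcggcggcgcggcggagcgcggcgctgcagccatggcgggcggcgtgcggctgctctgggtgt
LTBP2, chr14:74612188-74612487, minus strand: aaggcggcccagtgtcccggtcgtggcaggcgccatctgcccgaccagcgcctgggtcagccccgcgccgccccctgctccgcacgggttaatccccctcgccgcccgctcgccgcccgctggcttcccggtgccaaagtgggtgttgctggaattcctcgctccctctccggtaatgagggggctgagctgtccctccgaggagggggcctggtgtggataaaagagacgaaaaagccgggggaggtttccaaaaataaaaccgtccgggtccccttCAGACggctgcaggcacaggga

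In the upstream LTBP4 window the only marked run holds GTCTG and GGAATG, which share a G, and the downstream window holds no match. Promoter windows were found in RefSeq for 8 of the 9 genes, all except EFEMP1, with 12 windows in all. CAGAC or GTCTG was found in 8 of the 12, namely in windows of LTBP1, LTBP2, LTBP3, LTBP4, FBLN1 and EFEMP2, and in 45.3% of 35116 promoter windows of the same length. GGAATG or CATTCC was found in 2 of the 12, those of LTBP4 and FBN1, and in 14.0% of all windows. TGANTCA, the palindromic element bound by AP-1, was found in 0 of the 12 and in 7.71% of all windows. Some windows of LTBP1 and of LTBP3 overlap each other. A match describes the letters of a window and is not evidence of binding.

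LTBP1 (ENSG00000049323, chromosome 2 from 32946953 to 33399509, plus strand), an efficient carrier of latent TGF-beta, stood at 15.0, 12.0 and 14.4 CPM in L1high replicates 1, 2 and 3. In L1low replicates 1, 2 and 3 it stood at 20.1, 20.7 and 20.3 CPM. The L1low libraries lay close to each other and above every L1high library. The log2 fold change was 0.60 (standard error 0.13, 95% interval 0.33 to 0.87, adjusted p = 0.012), and 0.56 with L1high replicate 3 included (adjusted p = 0.0087). It was 0.59 and not called without L1low replicate 2 (adjusted p = 0.073). An antisense gene, ENSG00000285577, shares 249 exonic bases with LTBP1 on the opposite strand. It had 11 to 15 counts in the L1high libraries and 18 to 33 in the L1low libraries, against 236 to 319 and 360 to 372 for LTBP1. The libraries were stranded, but the strand setting of the counting was not given in the sources used here.

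LTBP2 (ENSG00000119681, chromosome 14 from 74498183 to 74612378, minus strand), which associates with fibrillin microfibrils and not with latent TGF-beta, had the lowest level of the LTBPs per transcript length. It stood at 7.97, 11.0 and 8.28 CPM in L1high replicates 1, 2 and 3 and at 14.6, 16.5 and 15.3 CPM in L1low replicates 1, 2 and 3. The groups did not overlap, and here L1high replicate 2 was the highest of its group rather than the lowest. The log2 fold change was 0.71 (standard error 0.15, 95% interval 0.38 to 1.05, adjusted p = 0.013) over the 5 libraries. Over all 6 libraries it was 0.76 (adjusted p = 0.0057), and without L1low replicate 2 it was 0.66 and not called (adjusted p = 0.08).

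LTBP3 (ENSG00000168056, chromosome 11 from 65538559 to 65558930, minus strand), the other efficient carrier of latent TGF-beta, did not pass the test. It stood at 30.8, 28.1 and 33.6 CPM in L1high replicates 1, 2 and 3 and at 30.1, 37.3 and 32.9 CPM in L1low replicates 1, 2 and 3. The groups overlapped, since L1low replicate 1 lay below 2 of the L1high libraries. The log2 fold change was 0.19 over the 5 libraries (95% interval -0.06 to 0.43, adjusted p = 0.34) and 0.12 over all 6 (95% interval -0.11 to 0.34, adjusted p = 0.56).

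**Figure D2:**
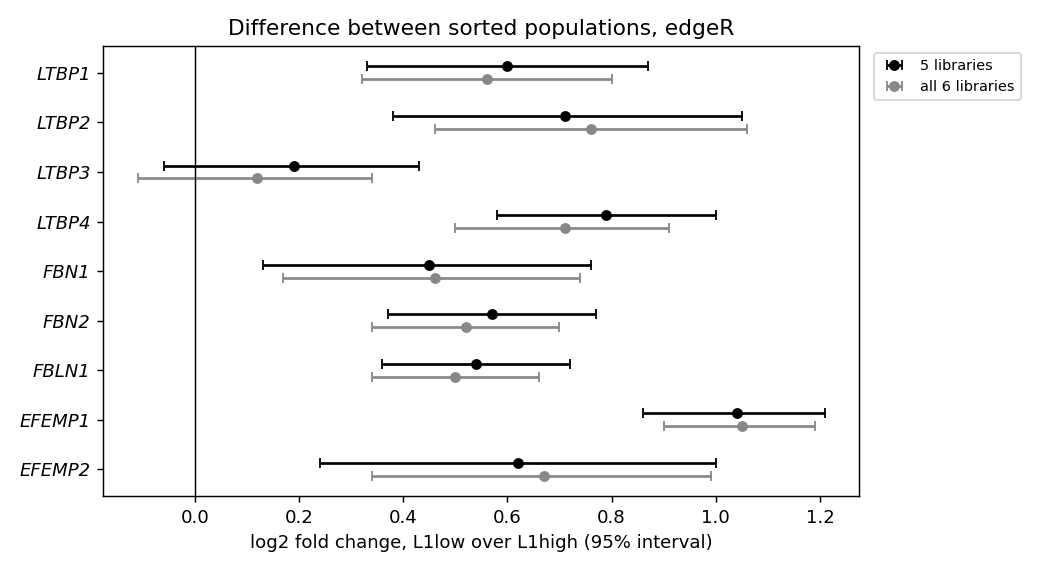
Log2 fold change of each gene, L1low over L1high, from edgeR with 95% intervals, over the 5 libraries (black) and all 6 libraries (grey). The intervals of LTBP3 cross 0, and EFEMP1 has the highest value, 1.04 over the 5 libraries and 1.05 over all 6.

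FBN2 and FBN1 encode the fibrillins. FBN2 (ENSG00000138829, chromosome 5 from 128257909 to 128659185, minus strand), the fibrillin mainly known from development, stood at 44.5, 41.1 and 47.0 CPM in L1high replicates 1, 2 and 3 and at 67.9, 61.5 and 60.2 CPM in L1low replicates 1, 2 and 3. All L1low libraries were above all L1high libraries, and the log2 fold change was 0.57 (standard error 0.09, 95% interval 0.37 to 0.77, adjusted p = 0.0025). FBN1 (ENSG00000166147, chromosome 15 from 48408313 to 48645721, minus strand), the main fibrillin of adult microfibrils and the gene mutated in Marfan syndrome, stood at 19.4, 13.4 and 15.7 CPM in L1high and at 22.7, 21.2 and 22.6 CPM in L1low replicates 1, 2 and 3. The groups of FBN1 did not overlap either, with L1high replicate 1 closest to the L1low libraries. The FBN1 log2 fold change was 0.45 (standard error 0.15, 95% interval 0.13 to 0.76, adjusted p = 0.087), and 0.46 with L1high replicate 3 included (adjusted p = 0.053), so it was not called in either. Without L1high replicate 1 it was 0.61 over the other 5 libraries and was called (adjusted p = 0.025).

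Of the fibulins, EFEMP1 (fibulin-3, ENSG00000115380, chromosome 2 from 55865967 to 55924139, minus strand), a secreted glycoprotein of basement membranes and elastic tissue, had the highest fold change of the 9 genes. It stood at 54.3, 54.5 and 52.3 CPM in L1high replicates 1, 2 and 3 and at 113, 112 and 107 CPM in L1low replicates 1, 2 and 3. The spread within each group was small. The mean was 53.7 ± 1.23 CPM (SD, n = 3) for L1high and 111 ± 3.07 CPM (SD, n = 3) for L1low. The log2 fold change was 1.04 (standard error 0.08, 95% interval 0.86 to 1.21, adjusted p = 7.0e-06), and 1.05 over all 6 libraries.

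FBLN1 (ENSG00000077942, chromosome 22 from 45502238 to 45601135, plus strand), which binds fibronectin, laminin and elastic fibres, stood at 58.1, 53.9 and 60.1 CPM in L1high replicates 1, 2 and 3. In L1low replicates 1, 2 and 3 it stood at 80.5, 82.9 and 80.0 CPM, so that every L1low library was higher. The log2 fold change was 0.54 (standard error 0.08, 95% interval 0.36 to 0.72, adjusted p = 0.0015).

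EFEMP2 (fibulin-4, ENSG00000172638, chromosome 11 from 65866441 to 65873592, minus strand), which brings lysyl oxidase to tropoelastin, had the fewest counts of the 9 genes. It stood at 4.29, 4.24 and 3.78 CPM in L1high and at 5.83, 6.63 and 7.12 CPM in L1low replicates 1, 2 and 3, from 62 to 91 and from 106 to 126 counts. The groups did not overlap, and the log2 fold change was 0.62 (standard error 0.17, 95% interval 0.24 to 1.0, adjusted p = 0.048), and 0.67 with L1high replicate 3 included (adjusted p = 0.018). The call was lost under 7 of 15 alternative settings, with DESeq2 (adjusted p = 0.093) and without L1low replicate 2 (0.16), L1low replicate 3 (0.092) or L1high replicate 1 (0.069) among them. MUS81 shares 11 exonic bases with EFEMP2 on the opposite strand and had a log2 fold change of 0.27 (adjusted p = 0.10).

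Ratios between genes of a family were compared because they do not depend on the scaling of a library. Of the 10 pairs within the 3 families, 5 had ratios that did not overlap between L1low and L1high, and each of the 5 had an exact two-sided permutation p of 0.10, the smallest that 3 against 3 libraries allow (0.20 after adjustment over the 10 pairs). No pair can therefore pass the threshold. The share of all gene pairs whose ratios do not overlap is not given here, so the count of 5 has nothing to be compared with. The 5 pairs are also not independent of each other or of the fold changes above. Each contains LTBP3 or EFEMP1, the members with the lowest and the highest log2 fold change over the 5 libraries (0.19 and 1.04). The log2 ratio of LTBP3 to LTBP4 CPM was -1.74, -1.58 and -1.70 in L1high and -2.33, -2.18 and -2.32 in L1low replicates 1, 2 and 3, a difference of -0.60. The log2 ratios of LTBP1 and LTBP2 to LTBP3 differed by 0.46 and 0.67. The log2 ratio of FBLN1 to EFEMP1 was 0.10, -0.02 and 0.20 in L1high and -0.49, -0.43 and -0.43 in L1low, a difference of -0.54, and EFEMP1 over EFEMP2 differed by 0.38. In contrast, the ratio of FBN1 to FBN2 overlapped between the groups (difference -0.04, exact permutation p = 0.90), as did those of LTBP1 to LTBP4 (-0.14, p = 0.20), LTBP1 to LTBP2 (-0.21, p = 0.40), LTBP2 to LTBP4 (0.07, p = 1.0) and FBLN1 to EFEMP2 (-0.17, p = 0.40).

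**Figure D3:**
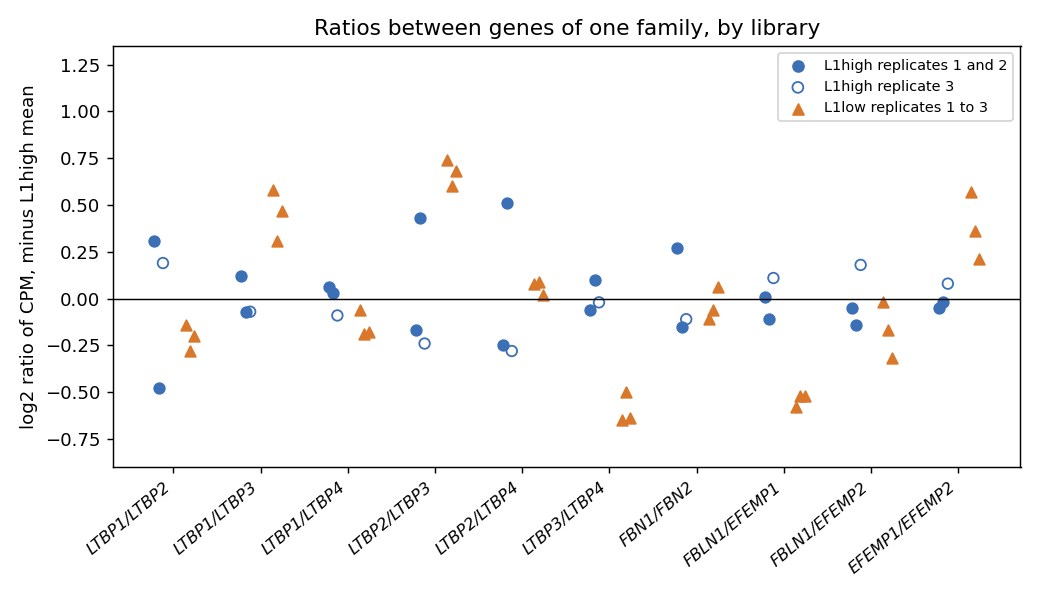
Log2 ratio of CPM for each pair of genes of a family in each library, from which the L1high mean of that pair was subtracted, with symbols as in the plot of CPM by library. The triangles (L1low) lie apart from the circles (L1high) for 5 of the 10 pairs, the 3 that contain LTBP3 and the 2 that contain EFEMP1.

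To compare levels between genes, CPM was divided by the length of the canonical transcript in kilobases, which gives RPKM. On this scale the order in L1low cells was led by EFEMP1 (40.9 ± 1.13 RPKM, SD, n = 3), LTBP4 (32.5 ± 1.89) and FBLN1 (27.9 ± 0.530). In L1high cells the same 3 genes led but were not separated by more than their spread, with LTBP4 at 20.0 ± 2.65 RPKM, FBLN1 at 19.8 ± 1.09 and EFEMP1 at 19.8 ± 0.455 (SD, n = 3). LTBP3 (6.39 in L1high and 6.91 in L1low) and FBN2 (4.04 and 5.78) followed in both groups. EFEMP2 and LTBP1 were not separated by more than their spread in L1high (2.12 ± 0.146 and 2.12 ± 0.244 RPKM) or in L1low (3.37 ± 0.334 and 3.14 ± 0.0457). FBN1 (1.39 ± 0.260 and 1.91 ± 0.0713) and LTBP2 (1.07 ± 0.197 and 1.83 ± 0.114) came last and were also close to each other. With the length of all annotated exons merged, EFEMP1, LTBP4 and FBLN1 still led (28.0, 19.9 and 11.1 RPKM in L1low), but LTBP3 (2.90) fell below FBN2 (3.54) there and EFEMP2 (1.21) fell below LTBP2 (1.70), so that the order of the lower genes depends on the length used.

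Within the LTBPs, LTBP4 made up 65.4% to 68.5% of the summed RPKM in the L1high libraries and 72.6% to 73.9% in the L1low libraries. The share of LTBP3 was 21.0% to 22.4% in L1high and 15.0% to 16.5% in L1low. Neither pair of ranges overlapped. The shares of LTBP1 (6.86% to 7.60% and 6.80% to 7.48%) and LTBP2 (3.04% to 5.01% and 4.03% to 4.16%) overlapped between the groups. With merged exon length, LTBP3 had 14.6% to 15.6% in L1high and 10.2% to 11.3% in L1low, and LTBP4 had 66.3% to 70.0% and 72.6% to 73.5%.

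The 9 genes differ in base composition and structure. The GC content of the canonical transcript ran from 41.9% in EFEMP1 to 67.7% in LTBP3 (48.5% at the median of all genes), and exon numbers ran from 11 in EFEMP2 to 66 in FBN1. When GC content and transcript length were entered as offsets, an alternative chosen after the data were seen, the log2 fold change of EFEMP1 (1.12) was higher and those of the other 8 genes were lower, at 0.65 for LTBP4, 0.54 for EFEMP2, 0.53 for LTBP2, 0.50 for LTBP1, 0.46 for FBLN1, 0.45 for FBN2, 0.34 for FBN1 and 0.04 for LTBP3. With these offsets 6 of the 9 genes and 2027 of all genes were called, 1029 of them higher, against 1473 and 859 without them. The aligner used, BWA, leaves reads that span a splice junction unplaced or clipped, and the inner exons of the 9 genes have a median of 120 to 132 bases, against 123 for all genes.

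The other genes of the same protein families were mostly below the level the table holds. Of FBN3, FBLN2, FBLN5, FBLN7, HMCN1 and HMCN2, only FBLN5 and HMCN1 had values. HMCN1, which encodes a large fibulin-related matrix protein (fibulin-6), stood at 1.13, 0.633 and 0.853 CPM in L1high replicates 1, 2 and 3. In L1low replicates 1, 2 and 3 it stood at 2.26, 3.57 and 2.48 CPM (log2 fold change 1.65, adjusted p = 0.012). It was not called without L1low replicate 2 (1.42, adjusted p = 0.07). Among the L1high libraries only replicate 1 exceeded 1 CPM, so HMCN1 was in the table only through its L1low values. Its rise is therefore not independent of that filter, and DESeq2 gave no call for it. FBLN5, a fibulin of elastic fibre assembly, stood at 6.13, 6.72 and 7.43 CPM in L1high and at 5.67, 4.85 and 4.74 CPM in L1low (log2 fold change -0.33, adjusted p = 0.27). Its 3 L1low libraries were all below the L1high libraries, the opposite order to 8 of the 9 genes above. The share of all genes with this downward order is not given here, and FBLN5 was not called under any alternative setting (adjusted p from 0.11 to 0.49).

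Of 22 elastic fibre and microfibril partners, 16 were in the table, 3 rose, 1 fell and 12 did not pass the test, where 4.41% of all genes were called higher and 3.15% lower. The median log2 fold change of the 16 was 0.14. HSPG2, which encodes the basement membrane proteoglycan perlecan, stood at 34.9, 21.3 and 36.2 CPM in L1high and at 48.5, 52.9 and 53.4 CPM in L1low (log2 fold change 0.88, adjusted p = 0.005). EMILIN3, a microfibril-associated glycoprotein, rose by 0.69 on the log2 scale (adjusted p = 0.007). ADAMTSL4, which binds fibrillin microfibrils, had a log2 fold change of 0.48 (adjusted p = 0.048), and 0.41 over all 6 libraries, where it was not called (adjusted p = 0.064). MFAP3L, a membrane protein named for its likeness to a microfibril-associated protein, fell by 0.60 on the log2 scale (adjusted p = 0.045). Leaving out single libraries ended the calls of ADAMTSL4 (adjusted p from 0.065 to 0.14 where lost) and MFAP3L (0.058 to 0.098), in both cases without L1low replicate 2, L1low replicate 3 or L1high replicate 1, in addition L1high replicate 2 for ADAMTSL4 and L1low replicate 1 for MFAP3L. LOX, the lysyl oxidase that cross-links elastin and collagen and the gene of this list with the most counts, stood at 46.9 to 56.2 CPM in L1high and at 55.9 to 67.3 CPM in L1low (log2 fold change 0.28, adjusted p = 0.14). LOX was called without L1low replicate 3 (0.36, adjusted p = 0.025) and, among all 6 libraries, without L1high replicate 2 (0.40, adjusted p = 0.034). ELN itself, encoding elastin, was not among the genes of the table, nor were MFAP4, ADAMTS10, ADAMTSL1, ADAMTSL2 and VCAN.

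TGF-beta is the ligand that LTBPs carry. TGFB1 stood at 108, 107 and 110 CPM in L1high and at 123, 135 and 142 CPM in L1low replicates 1, 2 and 3, with no overlap (log2 fold change 0.32, adjusted p = 0.034). It was not called without L1low replicate 2 (0.31, adjusted p = 0.17) or without L1high replicate 1 (0.30, adjusted p = 0.12), nor with GC and length offsets (0.21, adjusted p = 0.06). TGFB2 overlapped between the groups, with 118, 134 and 99.2 CPM in L1high and 139, 125 and 113 CPM in L1low (log2 fold change 0.01, adjusted p = 0.96). TGFB3 overlapped too, at 2.73, 3.07 and 3.65 CPM in L1high and 4.02, 2.23 and 3.16 CPM in L1low (log2 fold change 0.12, adjusted p = 0.82). LRRC32 and NRROS, whose products anchor latent TGF-beta at the cell surface in place of an LTBP, were not in the table. Of the BMP and GDF ligands known to bind fibrillin, 3 of 6 were in the table and 0 were called by edgeR or DESeq2, with 1 at an unadjusted p under 0.05. Of all 19469 genes, 4535 had an unadjusted p under 0.05 in edgeR over the 5 libraries, in either direction. BMP7, the ligand of these 3 with the most counts, had a log2 fold change of 0.25 (adjusted p = 0.071).

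Where 4.41% of all genes were called higher and 3.15% lower, the genes whose products activate latent TGF-beta or cleave its carriers were counted. Of 16 such genes, 14 were in the table, 6 rose and 1 fell, with a median log2 fold change of 0.15. The integrin subunit ITGB3 (log2 fold change 2.22, adjusted p = 1.8e-05), the protease MMP2 (1.56, adjusted p = 1.5e-04) and the activating matrix protein THBS1 (1.17, adjusted p = 3.7e-06) were the highest. ITGB6, the partner of ITGAV in an integrin that pulls on the latent complex, stood at 15.0, 16.4 and 13.1 CPM in L1high and at 26.3, 25.8 and 23.7 CPM in L1low (0.70, adjusted p = 0.0025). MMP14 (0.50, adjusted p = 0.0025) and ITGB1 (0.34, adjusted p = 0.032) also rose, the latter not without L1low replicate 1 or L1high replicate 1 (both adjusted p = 0.067) or L1low replicate 2 (0.17). ITGB8, the beta subunit of the other main activating integrin, stood at 106, 120 and 84.2 CPM in L1high and at 79.5, 82.7 and 57.0 CPM in L1low replicates 1, 2 and 3. It fell over the 5 libraries (-0.62, adjusted p = 0.013) but was not called over all 6 (-0.50, adjusted p = 0.059), nor over these without L1high replicate 1 (-0.48, adjusted p = 0.18) or replicate 2 (-0.38, adjusted p = 0.17). Over all 6 it was called with DESeq2 (-0.50, adjusted p = 0.007) and with the replicate number as a block (-0.50, adjusted p = 2.0e-04).

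Receptors, SMADs and response genes of the pathway that were called were all higher in L1low, and 0 were lower by edgeR, by DESeq2 or at an unadjusted p under 0.05. Of all genes, 4.41% were called higher and 3.15% lower. Of 9 receptor and SMAD genes, 4 rose (median log2 fold change 0.33), namely the inhibitory SMADs SMAD7 (1.02, adjusted p = 0.0044) and SMAD6 (0.84, adjusted p = 0.015), the receptor TGFBR2 (0.46, adjusted p = 0.0034) and the signal transducer SMAD3 (0.33, adjusted p = 0.018). Without L1low replicate 2, SMAD3 was not called (adjusted p = 0.13), and SMAD3 (0.065) and SMAD6 (0.10) were not called without L1high replicate 1, nor SMAD6 without L1high replicate 2 (0.065). Of 10 response genes, 5 rose (median 0.30). Among them CCN2, a matricellular protein that TGF-beta and YAP induce, rose by 1.88 on the log2 scale, TGFBI by 1.13, PMEPA1 by 0.83 and TGIF1 by 0.28. TGIF1 was not called without L1low replicate 2 (adjusted p = 0.19), L1low replicate 3 (0.05) or L1high replicate 1 (0.10). JUNB, with the most counts of them, had a log2 fold change of 0.32 (adjusted p = 0.057), and 0.40 without L1low replicate 1, where it was called (adjusted p = 0.011). 

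Over all lists of partners, 57 of 74 genes were in the table, 20 rose and 2 fell, where 4.41% of all genes were called higher and 3.15% lower. The median log2 fold change of the 57 was 0.25. Of the 22 that rose or fell, 12 were called under each of the 15 alternative settings. The number called was 14 without L1low replicate 2 and 13 without L1high replicate 1.

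**Figure D4:**
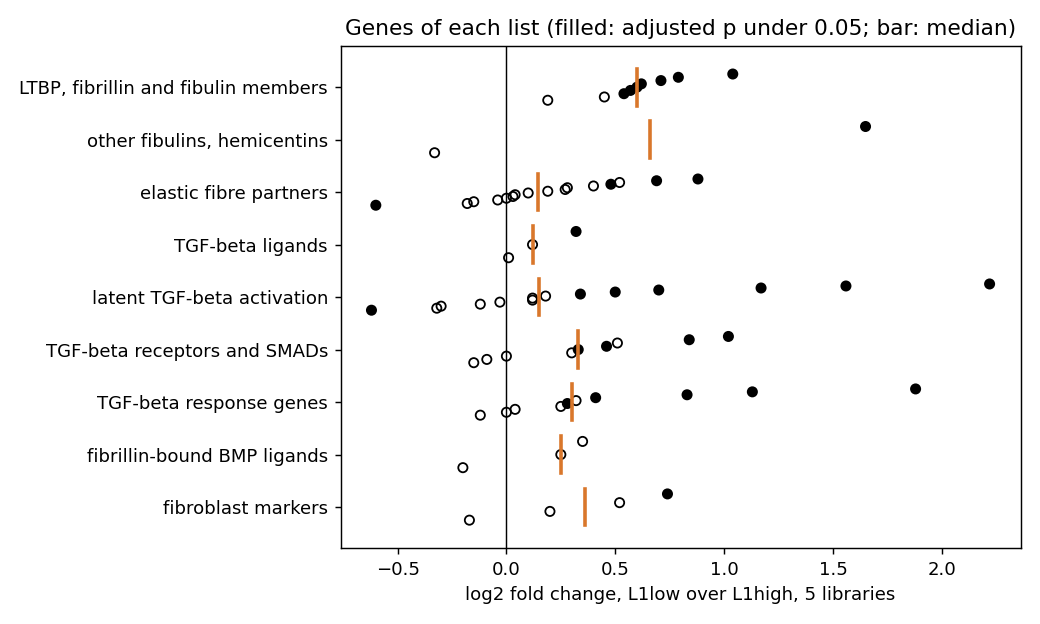
Log2 fold change over the 5 libraries, L1low over L1high, of each gene in the table by list, with filled points for an adjusted p under 0.05 in edgeR and a bar at the list's median. The median is 0.60 for the LTBP, fibrillin and fibulin genes and 0.14 for their elastic fibre partners.

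Because these genes are known from fibroblasts, markers of other cells were counted beside them. Of 10 fibroblast and stellate cell markers, 6 were not in the table, namely COL1A2, DCN, PDGFRA, PDGFRB, THY1 and FAP. The summed CPM of the 4 in the table (COL1A1, COL3A1, LUM and ACTA2) was 269 to 309 in L1high and 308 to 333 in L1low. LUM, encoding a small matrix proteoglycan, was the 1 of them that rose (80.8, 89.8 and 78.1 CPM in L1high, 150, 147 and 129 CPM in L1low, log2 fold change 0.74, adjusted p = 3.1e-04), while COL1A1 had a log2 fold change of -0.17 (adjusted p = 0.29), and of -0.36 over all 6 libraries without L1high replicate 2, where it was called (adjusted p = 0.0064). All 6 epithelial markers were in the table, with 4232 to 4785 summed CPM in L1high and 4780 to 5130 in L1low. KRT19 rose (0.69, adjusted p = 6.8e-05), EPCAM fell (-0.37, adjusted p = 0.013, but 0.095 without L1low replicate 2, 0.16 without L1high replicate 1 and 0.11 without L1high replicate 2), and KRT7, with the most counts, was not called (0.21, adjusted p = 0.083). Of 8 genes known to respond to sorting and handling, 4 rose (ATF3 by 0.50, FOSB by 0.46, EGR1 by 0.32 and FOS by 0.25 on the log2 scale), where 4.41% of all genes were called higher. All 8 had a positive log2 fold change over the 5 libraries, with a median of 0.23, against 0.00 for all genes. The lowest of them was 0.02, and the same gene was at -0.05 over all 6 libraries. The summed CPM of the 8 was 6796 to 7238 in L1high and 8566 to 9057 in L1low. EGR1 and FOS were not called without L1low replicate 2 (adjusted p = 0.16 and 0.22) or L1high replicate 1 (0.056 and 0.12), nor FOS without L1high replicate 2 (0.071). The part of these genes' differences in the results above was not tested.

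The genes whose profile over the 6 libraries was most like that of EFEMP1 were PLD4, KIRREL1, TP63, NDRG1 and IRS1. Their log2 CPM, centred on each gene's mean, differed from that of EFEMP1 by a root mean square of 0.025 to 0.057 among 17022 genes compared. TP63, the squamous transcription factor, stood at 314, 301 and 283 CPM in L1high and at 667, 668 and 614 CPM in L1low. KIRREL1, a membrane adhesion protein, stood at 81.9, 75.2 and 76.1 CPM in L1high and at 159, 155 and 160 CPM in L1low. Of the other 8 genes studied here, LTBP2 ranked closest to EFEMP1 (rank 136, 0.201) and LTBP3 farthest (rank 4818, 0.485). These ranks describe 6 libraries of 2 groups, in which any gene with about the same fold change ranks high.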

How the data were processed

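Poly(A) libraries of sorted L3.6pl cells (TruSeq stranded, paired-end) were aligned by the authors to GRCh38 with BWA, and featureCounts assigned them to the gene models of Ensembl release 94. The values deposited were raw read counts per gene without normalization, for genes above 1 CPM in at least 2 libraries. Tool versions and the strand and multi-mapping settings of the counting were not given in the sources used here. The submitters' processing notes also name DESeq2 and GRCh38.p13.

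Samples were grouped by the labelled L1CAM population. Counts were tested in R 4.3.3 with edgeR 4.0.16 (TMM factors, filterByExpr, quasi-likelihood test, Benjamini-Hochberg adjustment over 19469 genes for 5 libraries and 19467 for 6), with calls at an adjusted p under 0.05. CPM used TMM factors over all 6 libraries, and log2 CPM a prior count of 2. Standard errors are the size of the log2 fold change divided by the square root of F. Pair ratios were tested with an exact two-sided permutation test (scipy 1.17.1, Python 3.11.15). GENCODE release 44 gave coordinates, lengths and GC content for 19344 of 19469 identifiers, and RefSeq gave promoter windows. Intervals reflect the spread between libraries. No library was a duplicate, since even L1high replicates 1 and 3, the most alike, had a chi-square per degree of freedom of 3.66.

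The genes and lists were chosen with earlier results of these data known, after part of the study's own comparison had been seen. Genes named are all 9 members, up to 6 called genes of a list by size of the log2 fold change, TGFB1, TGFB2, TGFB3, the gene of each list with the highest CPM, the 5 genes most like EFEMP1, and L1CAM. FBLN5, genes on the opposite strand, COL1A1 and genes not in the table were named outside this rule, after their values were seen. Some genes that the rule or an overlap would name are not reported here. On simulated data over 19469 genes, the 5-library fit found 186 of 200 genes that had been changed by a log2 value of 1 (93.0%), with 13 false among 199 calls. The simulation gave all genes the same spread. Of the 9 genes only EFEMP1 reached such a change, so the 93.0% does not describe smaller changes. The alternatives tried were the fit over all 6 libraries, fits that each left out 1 library, a replicate block, DESeq2 1.42.0, RLE, upper-quartile or library-total scaling, no low-count filter, at least 10 counts in every library, and, added later, GC and length offsets and DESeq2 over all 6 libraries.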

Additional observations from a re-analysis of the deposited data

How the results depend on the processing

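All 9 genes kept a positive log2 fold change under all 15 alternatives. Of 135 values, 123 kept their side of the threshold, 9 lost the call, 3 gained it and 0 turned sign. The fit without the low-count filter could not differ from the main fit, since that filter removed no gene, so it adds nothing to these counts. LTBP4 (0.60 to 0.84), FBN2, FBLN1 and EFEMP1 (1.02 to 1.12) were called under each of the 15, LTBP3 under 0. LTBP1 and LTBP2 lost the call only without L1low replicate 2. EFEMP2 lost it under 7 alternatives (adjusted p from 0.014 to 0.16 over the 15), and FBN1 gained it with the replicate block (0.0095), without L1high replicate 1 (0.025) and with DESeq2 over all 6 libraries (0.023). L1low libraries were left out of the 5 libraries and L1high replicates 1 and 2 out of all 6, so these fits differ in size and in libraries. Leaving out 1 library gave 4 to 7 of the 9 genes called, 551 to 1649 of all genes against 1473, and 13 to 22 partner genes against 22. These numbers were 4, 551 and 14 without L1low replicate 2 and 7, 674 and 13 without L1high replicate 1. The cause was not tested. With the replicate number as a block over all 6 libraries, 8 of the 9 genes and 2363 of all genes were called. Same-numbered libraries correlated at 0.117, 0.0967 and 0.292 in their deviations from the group means. L1high replicates 1 and 3 correlated best with the L1low library of their own number, and L1high replicate 2 with L1low replicate 1 (0.106). L1low replicate 2 correlated best with L1high replicate 2. The labels do not say that equal numbers are pairs, so the main comparison did not use them as such, and a pairing remains possible.

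Of all 763 values followed over the alternatives, which do not cover every gene of the lists, 7 turned sign, all of genes that were not called. TGFB2 was -0.07 without L1low replicate 1 and -0.01 with library totals only. TGFB3 was 0.31 without L1low replicate 2, -0.10 without L1low replicate 1, -0.01 with the replicate block, -0.09 and -0.01 over the 6 libraries without L1high replicate 1 and 2, and -0.00 with DESeq2 over all 6. Genes below the level of the table could not be assessed, and at the 62 to 126 counts of EFEMP2 the standard error was 0.17, against 0.08 for EFEMP1.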
